A study of Mus musculus with 16 samples.

Results

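The total change from naive CD8+ T cells to cells that carry the surface receptors PD-1 and TIM-3 was read from 6 of the 12 RNA-seq libraries of a study of 16 samples. The 6 were chosen by their labels alone: 3 libraries of Tn, the naive state at day 0, and 3 libraries of Tex, the PD-1+ TIM-3+ state at day 5 of culture. Both groups came from naive CD8+ T cells of the spleen of C57BL/6 mice, an inbred laboratory strain. Tn cells were sorted as naive CD8+ and CD44- cells and had not been stimulated. Tex cells had received antibodies against CD3e and CD28, at 10 µg/ml each, and then IL-2 at 300 U/ml after a night, and were sorted as CD8+, PD-1+ and TIM-3+. Each library was made from 200000 cells. Teff1 (day 2) and Teff2 (day 5), PD-1+ TIM-3- cells of the same culture scheme, served only to show where Tex differed from other activated cells. Whether the replicates are different mice or different cultures is not stated, so p-values reflect only the spread between these libraries, which may be technical.

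A naive CD8+ T cell is small, does not divide, and circulates between blood and lymphoid organs under the control of transcription factors such as TCF1 (gene Tcf7) and KLF2. Stimulation through the T cell receptor (CD3) and the costimulatory receptor CD28, followed by IL-2, makes the cell grow, divide and acquire granzymes, perforin and cytokines. PD-1 and TIM-3 are inhibitory receptors that appear on activated T cells and remain on chronically stimulated, exhausted ones. The name Tex is the study's, and these cells had been in culture for 5 days.

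Levels below are in CPM, counts scaled by the library's total and its TMM factor, given for replicates 1, 2 and 3 of a group in that order. CPM compare libraries for a gene, not genes with each other. They are shares of each library without a spike-in, so a change in RNA per cell is not measured. In bulk libraries like these, fewer cells of a type and less RNA per cell cannot be told apart. Log2 fold changes are Tex minus Tn, with their standard error (SE) and a p adjusted over all genes by the method of Benjamini and Hochberg, from the quasi-likelihood test of edgeR. A gene is said to rise or fall where that adjusted p is under 0.05. Coordinates are those of the mouse assembly GRCm38.p6.

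The genes of the sorted proteins differed between Tn and Tex in the direction of the gates. Havcr2 (chromosome 11, 46454931 to 46481255), which encodes TIM-3, was at 2.45, 0.409 and 2.2 CPM in Tn and 34.6, 10.9 and 38.4 CPM in Tex (log2 fold change 4.03, SE 0.64, adjusted p = 3.6e-04). Pdcd1 (chromosome 1, 94038305 to 94052553), which encodes PD-1, was at 3.51, 2.996 and 6.93 CPM in Tn and 169, 165 and 241 CPM in Tex (log2 fold change 5.41, SE 0.4, adjusted p = 2.7e-06). No Tex library overlapped a Tn library for either gene, and Tex replicate 2 had the lowest Havcr2 level of its group. Cd44 (chromosome 2, 102811141 to 102901669), an adhesion receptor of activated cells, was at 36.3, 6.33 and 32.3 CPM in Tn and 469, 223 and 208 CPM in Tex (log2 fold change 3.58, SE 0.54, adjusted p = 2.3e-04). Cd8a (chromosome 6, 71373427 to 71379171), a chain of CD8, was at 931, 1536 and 1129 CPM in Tn and 738, 839 and 803 CPM in Tex (log2 fold change -0.6, SE 0.18, adjusted p = 0.016), so all 6 libraries held the transcript at a high level while its share was lower in Tex. The Cd8a call was lost without Tex replicate 1 (adjusted p = 0.054) and without Tn replicate 2 (adjusted p = 0.081).

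Total counts were 14668884 to 19598158 in the 6 libraries, so 3 counts, the upper limit that a count of 0 allows, came to 0.156 to 0.204 CPM. In a principal component analysis of the 6 libraries, Tn and Tex lay apart on component 1 (81.3% of the variance), and on component 2 (7.61%) Tex replicate 1 lay apart from the other two. The Tn libraries also differed among themselves. Transcripts of 8 B cell markers summed to 1383, 628 and 2208 CPM in Tn and 89.5, 148 and 179 CPM in Tex. The 5 MHC class II genes summed to 1389.7, 119 and 2107 CPM in Tn against 83.9, 64.9 and 36.6 CPM in Tex. The 9 macrophage and monocyte markers summed to 314, 92.1 and 164 against 7.47, 8.1 and 9.73 CPM, and the 6 NK cell markers to 61.3, 4.77 and 129 against 13.3, 4.97 and 8.48 CPM. In these 4 lists every marker had counts in Tn, Tn replicate 2 was the lowest naive library, and in Tex only Pax5 of B cells and Marco of macrophages were at 0. Most of these markers were very low in Tex, however. A mean under 1 CPM in Tex was found for 6 of 8 B cell and 8 of 9 macrophage and monocyte markers. The same held for 4 of 6 NK cell markers and 2 of 5 MHC class II genes, and for 0 markers of these lists in Tn. Red cell markers summed to 113, 91.2 and 48.6 CPM in Tn, platelet markers to 52.5, 11.8 and 27.8 CPM and stromal markers to 164, 168 and 181 CPM, against at most 3.19, 6.7 and 57.5 CPM in a Tex library. Of the 7 stromal markers 6 had a mean under 1 CPM in Tex and 1 in Tn. Dendritic cell, neutrophil and gamma delta T cell markers summed to at most 42, 6.18 and 16.2 CPM in any of the 6 libraries. The 3 markers of CD4 and regulatory T cells summed to 65.2, 7.22 and 76.6 CPM in Tn and 126, 57.5 and 92 CPM in Tex, and the 6 of CD8 T cells to 2635, 4252 and 3154 and 2041, 2263 and 2238 CPM. The part of other cells in the differences described below was not tested. The lists and genes were also compared with Tn replicate 2 as the only naive library, whose spread is then assumed to be that of the other groups. With 1 naive library fewer genes reach the threshold, so a call lost there does not show that the change was absent.

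The change covered the larger part of the genes tested. Of 14332 genes tested, 7584 were called (52.9%), 3909 higher in Tex (27.3%) and 3675 lower (25.6%). Changes of 1 or more on the log2 scale were called for 2753 genes in the upward direction (19.2%) and for 2592 in the downward direction (18.1%). The 3 Tex libraries all lay above the 3 Tn libraries for 4584 genes (32%) and all below for 4493 (31.3%). Most calls were of moderate size: 1156 rises and 1083 falls were under 1 on the log2 scale, and 1480 rises and 1263 falls lay between 1 and 2. The most extreme class, 6 or more on the log2 scale, held 134 rises and 248 falls. Against Tn replicate 2 alone, 1968 genes were called higher and 1976 lower.

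The 8 largest rises were those of genes close to absent from naive cells. Cth (chromosome 3, 157894248 to 157925081), the enzyme that releases cysteine from cystathionine, was without a count in all 3 Tn libraries and at 173, 69.6 and 141 CPM in Tex, at least 680.2-fold higher against the floor of 3 counts per library (adjusted p = 4.9e-05). Upp1, a uridine phosphorylase, went from 0 counts to 62.6, 35 and 23 CPM (at least 214-fold, adjusted p = 8.4e-06). Slc17a6, a vesicular glutamate transporter better known from neurons, went from 0 counts to 24.6, 48.5 and 35.9 CPM (at least 193-fold, adjusted p = 1.5e-05). These 3 genes were at high levels in every Tex library. Inhba, a subunit of activin, was at 32.2, 2.59 and 2.97 CPM against 0 counts (at least 67-fold, adjusted p = 0.0028), with most of its level in Tex replicate 1. The transcription factor gene Osr2 was at 18.9, 4.86 and 11.1 CPM against 0 counts (at least 61.7-fold, adjusted p = 7.6e-04). Rgs8, a regulator of G protein signalling, had 1 count over the Tn libraries and 60.3, 20.6 and 37.4 CPM in Tex, a ratio of 1902 (95% counting interval 341 to 75141). Spp1, which encodes the secreted protein osteopontin, was at 0.398, 0 and 0.161 CPM in Tn and 166, 382 and 270.2 CPM in Tex (log2 fold change 10.47, SE 0.98, adjusted p = 1.1e-05). Tnfsf4, the ligand of the costimulatory receptor OX40, had 2 counts over Tn and 73, 5.08 and 10.8 CPM in Tex, again with its highest level in replicate 1 (ratio 705, interval 195 to 5824). Such intervals and floors cover counting error only. The Inhba and Tnfsf4 calls were lost against Tn replicate 2 alone (adjusted p = 0.062 and 0.08).

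The 8 largest falls were of genes known from B cells and macrophages, and those of the B cell genes followed the uneven marker sums given above. Pax5, the B cell identity factor, was at 39, 2.11 and 50.04 CPM in Tn and had no count in Tex (at least 189-fold lower, adjusted p = 0.001). Bcl11a and Cd180, also of B cells, were at 29.6, 1.97 and 34.1 and at 18.1, 1.5 and 25.2 CPM in Tn, with no count in Tex. Sfpi1, which encodes PU.1 of the myeloid and B lineages, was at 32.1, 4.49 and 20.7 CPM in Tn with no count in Tex. Tn replicate 2 was the lowest naive library for all 4 of these genes. Lyz2, a lysozyme of myeloid cells, was at 106, 12.9 and 53.4 CPM in Tn and had 1 count in Tex (ratio 3225, interval 578 to 127437, adjusted p = 2.6e-05). Marco and Cd5l, of macrophages, were at 39.6, 2.59 and 1.67 and at 24.4, 5.52 and 5.7 CPM in Tn, with no count in Tex. Slc40a1, the iron exporter of macrophages and red cell precursors, was at 36.1, 17.4 and 20.6 CPM in Tn and had no count in Tex (at least 154-fold lower). In RNA of bulk samples, fewer cells of a type and less RNA per cell cannot be told apart, and how much of these falls lies in T cells was not tested.

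Among genes with at least 10 CPM in each Tn library, a choice made after the values were seen, the 12 largest falls still held macrophage and red cell genes (Slc40a1, Lyz2, Vcam1, Csf1r, Hba-a1, Hbb-b1) and genes of B and antigen-presenting cells with uneven Tn levels, H2-Aa at 211, 20.2 and 368 CPM and the kinase gene Syk at 129.7, 11.5 and 158 CPM, but also genes of T cells. Ccr9, which guides T cells to the small intestine, was at 122.8, 215 and 137 CPM in Tn and 0.33, 0.108 and 0.104 CPM in Tex (log2 fold change -9.73, SE 0.83, adjusted p = 6.4e-06). Cd7, a T cell surface protein, was at 45.3, 59 and 62.9 CPM in Tn and 0.11, 0.054 and 0.208 CPM in Tex (log2 fold change -8.72, SE 0.61, adjusted p = 1.9e-06). Its Tn libraries were even, unlike those of the B cell genes. Kcnc1, a potassium channel subunit, was at 44.8, 36.9 and 39.9 CPM in Tn and 0.33, 0.054 and 0.104 CPM in Tex (log2 fold change -7.91, SE 0.94, adjusted p = 5.4e-05), also with 3 Tn levels close to each other.

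Genes of naive and memory T cells fell as a group. Among 30 genes of naive and memory T cells, 25 fell and none rose, with a median log2 fold change of -2.76 beside 0.00 over all genes tested. In the comparison with Tn replicate 2 alone 24 fell. Tcf7 (chromosome 11, 52246527 to 52283383), the factor TCF1 of naive and memory cells, was at 1283, 1569 and 1114 CPM in Tn and 251, 106 and 70.3 CPM in Tex (log2 fold change -3.21, SE 0.51, adjusted p = 3.3e-04). Lef1, its relative, was at 446, 684 and 466 CPM in Tn and 105.5, 88 and 64.3 CPM in Tex (log2 fold change -2.63, SE 0.33, adjusted p = 7.0e-05). Klf2 (chromosome 8, 72319062 to 72321654), which keeps T cells quiescent and circulating, was at 866, 792 and 590.1 CPM in Tn and 0.604, 6.05 and 2.86 CPM in Tex (log2 fold change -7.88, SE 0.64, adjusted p = 4.8e-06). Klf2 was thus nearly absent from Tex, while Tcf7 and Lef1 kept a part of their naive level. S1pr1, the receptor that lets T cells leave lymph nodes and a target of KLF2, was at 574, 519 and 461 CPM in Tn and 5.11, 7.02 and 7.23 CPM in Tex (log2 fold change -6.32, SE 0.55, adjusted p = 6.7e-06). Il7r, the receptor chain for the survival cytokine IL-7, was at 524, 707 and 394 CPM in Tn and 84.4, 135 and 201 CPM in Tex (log2 fold change -1.95, SE 0.44, adjusted p = 0.0029). Other members that fell were Il6ra (-5.65), Klf3 (-5.02), Foxo1 (-2.07), Ets1 (-2.29) and Satb1 (-1.08), as log2 fold changes.

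A few naive genes did not follow. Ccr7, the lymph node homing receptor, was at 507, 453 and 362 CPM in Tn and 533, 480.3 and 618 CPM in Tex, and the groups overlapped (log2 fold change 0.3, SE 0.34, adjusted p = 0.48). Bach2, Id3, Foxo3 and Pdlim1 also missed the threshold, with log2 fold changes of -0.25, -0.48, -0.6 and -0.52. Of the receptors for entry to and exit from lymph nodes, S1pr1 therefore fell and Ccr7 missed the threshold.

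**Figure D1:**
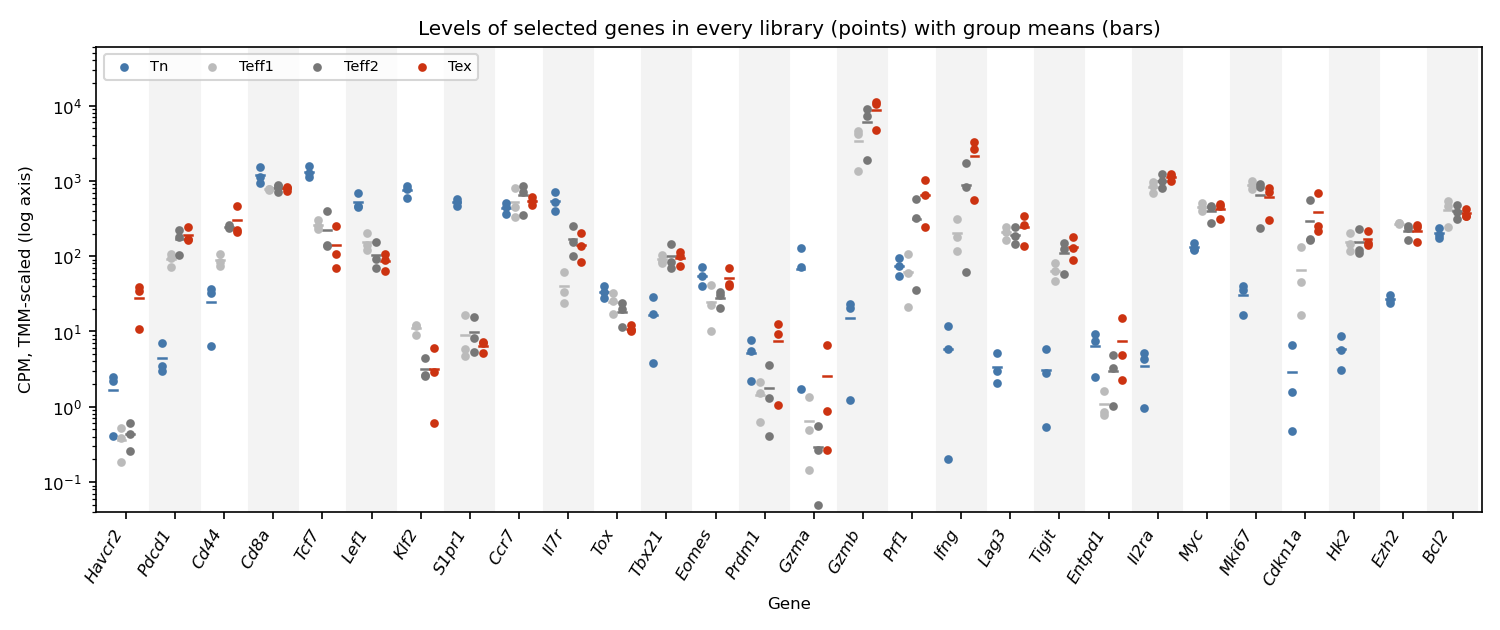
TMM-scaled CPM (log axis) of 28 genes in the 12 libraries, with 1 point per library and a bar for each group mean. The lowest values are drawn at a fixed level just above the lower edge of the axis. In Tex, Klf2 and S1pr1 lie far below their Tn points, and Gzmb and Ifng far above theirs. The Ccr7 points of Tn and Tex overlap.

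Homing and adhesion genes shifted with the naive program. Among 17 chemokine and egress receptors, 10 fell and 2 rose (median -2.09). Against Tn replicate 2 alone 7 fell and 3 rose. Besides Ccr9 and S1pr1, Cxcr4 (-4.9) and Gpr183 (-2.89) fell on the log2 scale. Ccr4, a receptor of skin-homing T cells, rose from 1.59, 0.953 and 2.04 to 14.4, 13.3 and 10.9 CPM (log2 fold change 3.06, SE 0.3, adjusted p = 1.4e-05). Of 17 integrins and selectin ligands 7 fell (41.2%) and 4 rose (23.5%), beside 25.6% and 27.3% of all genes. Itgae, which encodes CD103 and holds cells in epithelia, was at 159.6, 254 and 141 CPM in Tn and 7.03, 1.73 and 1.61 CPM in Tex (log2 fold change -5.74, SE 1.19, adjusted p = 0.0019). Itga4 (-3.28) and Itgb7 (-1.95), chains of the gut-homing integrin, fell too, while Itgav (2.21) and Fut7 (3.46), which builds selectin ligands, rose.

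Genes that restrain growth moved both ways. Of 22 such genes 8 fell (36.4%) and 4 rose (18.2%), beside 25.6% and 27.3% of all genes, with 10 not called. Tsc22d3, which encodes the glucocorticoid-induced protein GILZ, was at 555, 529 and 419 CPM in Tn and 16.4, 23.4 and 56.9 CPM in Tex (log2 fold change -3.96, SE 0.58, adjusted p = 2.1e-04). Pik3ip1, a PI3K inhibitor of resting T cells, fell (-3.23), as did Pdcd4 (-2.02) and Sesn1 (-2.51). Eif4ebp1, which binds the translation factor eIF4E, was at 12.5, 10.9 and 9.51 CPM in Tn and 180.2, 166 and 208 CPM in Tex (log2 fold change 4.07, SE 0.21, adjusted p = 3.0e-07), and Sesn2, a stress-induced sestrin, also rose (3.6). The sestrin genes Sesn1 and Sesn2 thus moved in opposite directions.

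Cytotoxic granule genes rose in part. Of 17 granule genes 9 rose and 2 fell, with a median of 0.78, and 4 fell without Tex replicate 1. Gzmb (chromosome 14, 56258836 to 56262334), the protease granzyme B, was at 20.6, 1.23 and 22.9 CPM in Tn and 4719.6, 11027 and 10545 CPM in Tex (log2 fold change 9.19, SE 1.13, adjusted p = 6.5e-05). It took 0.48, 1.04 and 1.04% of all counts in the Tex libraries, and in replicate 2 it had more counts than any other gene. Gzmc, a neighbouring granzyme gene, rose as well (7.91), although close copies in this family may share reads. Prf1, the pore protein perforin, was at 54, 73.1 and 94.8 CPM in Tn and 243, 1042 and 648 CPM in Tex (log2 fold change 3.12, SE 0.87, adjusted p = 0.0097). Fasl, the ligand of the death receptor Fas (3.27), Stx11, a syntaxin needed for granule release (3.26), and Srgn, the granule matrix protein serglycin (1.22), rose. The Prf1 call was lost against Tn replicate 2 alone, at a log2 fold change of 3.13.

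Gzma (chromosome 13, 113093824 to 113100981), granzyme A, went the other way on the pooled comparison, and that direction rested on the Tn libraries with NK cell markers. Its levels were 71.9, 1.7 and 128 CPM in Tn and 6.59, 0.27 and 0.884 CPM in Tex, so the groups overlapped (log2 fold change -4.7, SE 1.35, adjusted p = 0.012). Against Tn replicate 2 alone the log2 fold change was 0.58 (adjusted p = 0.83). The part of NK cell transcripts in the Tn level was not tested. Within Tex, replicate 1 held the highest Gzma and the lowest Gzmb level.

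Serpins, several of which inhibit granzymes and protect the killer cell itself, rose beside Gzmb. Of 11 tested members 8 rose and 2 fell (median 3.01). Serpinb9, the inhibitor of granzyme B, rose by 3.98 on the log2 scale, and its close copy Serpinb9b by 4.52. Serpine2, a secreted protease inhibitor, was at 1.06, 0.136 and 1.13 CPM in Tn and 374, 102 and 124 CPM in Tex (log2 fold change 7.97, SE 0.82, adjusted p = 2.0e-05). Serpinb1a fell from 15.6, 2.38 and 20.5 to 0.22, 1.08 and 0.988 CPM (log2 fold change -4.06, SE 0.76, adjusted p = 9.6e-04). That call was lost against Tn replicate 2 alone, at a log2 fold change of -1.65.

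Secreted factors were the list with the second highest median after the G2 and M phase genes. Of 20 tested cytokine and chemokine genes 14 rose and 2 fell (median 4.15). The numbers were the same against Tn replicate 2 alone. Il3, a growth factor cytokine, had no count in Tn and 1.98, 5.4 and 4.53 CPM in Tex (adjusted p = 7.4e-04), and with it at its lower bound the median of the list was 3.95. Csf2, which encodes GM-CSF, had 2 counts over Tn and 27.5, 14.1 and 6.76 CPM in Tex (adjusted p = 6.1e-05). Ifng, the gene of interferon gamma, was at 11.7, 0.204 and 5.91 CPM in Tn and 558, 3282 and 2655 CPM in Tex (log2 fold change 8.51, SE 1.46, adjusted p = 5.6e-04). Tex replicate 1 was the lowest of its group for Ifng and still far above Tn. Lif (9.03), which signals through gp130, rose, as did the chemokine genes Ccl3 (5.92), Ccl4 (5.12) and Xcl1 (6.37). Tnf (3.5) and Lta (4.8) rose by less. Il2 itself missed the threshold (0.38, adjusted p = 0.8), and so did Ccl5 (-1.55, adjusted p = 0.11). Il16, a cytokine made by resting lymphocytes, was at 90.1, 164 and 159 CPM in Tn and 37.8, 41.1 and 40.7 CPM in Tex (log2 fold change -1.79, SE 0.23, adjusted p = 8.5e-05).

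More cytokine receptor chains fell than rose. Of 28 chains 5 rose (17.9%) and 12 fell (42.9%), beside 27.3% and 25.6% of all genes. Il2ra, the alpha chain of the IL-2 receptor, was at 5.17, 0.953 and 4.3 CPM in Tn and 984, 1158 and 1216 CPM in Tex (log2 fold change 8.32, SE 0.52, adjusted p = 9.8e-07). Il2rb (1.22) and the IL-12 receptor chains Il12rb1 (3.87) and Il12rb2 (6.13) rose with it. Il6ra, the IL-6 receptor, was at 208, 254 and 190.4 CPM in Tn and 4.34, 4.1 and 4.53 CPM in Tex (log2 fold change -5.65, SE 0.22, adjusted p = 1.3e-07), and its partner Il6st fell by 3.72 on the log2 scale. Tgfbr2 (-2.41), Ifngr2 (-2.93) and Il27ra (-1.98) fell. The 5 chains that rose, with Il15ra (1.88), serve IL-2, IL-15 and IL-12. Chains for IL-6, IL-7, TGF-beta and the interferons were among those that fell.

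Inhibitory receptors moved in both directions. Of 23 tested genes 11 rose and 6 fell, beside 27.3% and 25.6% of all genes (median 0.66). Lag3, which binds MHC class II, was at 2.98, 2.04 and 5.16 CPM in Tn and 137, 256 and 338 CPM in Tex (log2 fold change 6.15, SE 0.45, adjusted p = 2.6e-06). Tigit, which competes with the costimulatory receptor CD226, was at 5.83, 0.545 and 2.79 CPM in Tn and 90.1, 129 and 178 CPM in Tex (log2 fold change 5.43, SE 0.65, adjusted p = 5.6e-05). Ctla4, which competes with CD28, was at 84.3, 10.5 and 9.51 CPM in Tn and 67.5, 344 and 536 CPM in Tex (log2 fold change 3.18, SE 0.92, adjusted p = 0.012), and Tn replicate 1 lay above Tex replicate 1. Klrc1 (5.43) and the PD-1 ligand gene Pdcd1lg2 (5.28) rose too. Lair1, a collagen receptor, fell from 10.3, 7.63 and 9.84 to 1.37, 3.08 and 1.56 CPM (log2 fold change -2.21, SE 0.42, adjusted p = 0.001), and Cd96 (-1.24) and Btla (-0.91, adjusted p = 0.4 against Tn replicate 2 alone) fell. Entpd1, the ectoenzyme CD39, overlapped between the groups, at 7.49, 2.52 and 9.14 CPM in Tn and 2.25, 4.81 and 15 CPM in Tex (log2 fold change 0.2, SE 0.71, adjusted p = 0.82).

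Costimulatory receptors split in a similar way, with 10 of 19 higher (52.6%) and 6 lower (31.6%), beside 27.3% and 25.6% of all genes. Without Tex replicate 2, 3 were lower. Tnfrsf9, which encodes 4-1BB, was at 13.3, 11.8 and 12.1 CPM in Tn and 911, 1310.3 and 1402 CPM in Tex (log2 fold change 6.61, SE 0.33, adjusted p = 3.0e-07). Other TNF receptor family members, Tnfrsf4 of OX40 (4.76), Tnfrsf8 of CD30 (6.11) and Tnfrsf18 of GITR (2.95), rose. Slamf6, a receptor of naive and precursor cells, was at 116, 121 and 132 CPM in Tn and 9.23, 4.27 and 7.6 CPM in Tex (log2 fold change -4.12, SE 0.45, adjusted p = 2.8e-05). Cd226 (-2.27) and Cd27 (-0.9) fell, and Cd28 missed the threshold (0.84, adjusted p = 0.075).

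The killer lectin-like receptors, shared with NK cells, depended on the libraries used. Of 16 tested genes 3 rose and 3 fell (18.8% each), beside 27.3% and 25.6% of all genes. Against Tn replicate 2 alone 7 rose and 0 fell. The number that fell was 12, 6 and 6 without Tex replicate 1, 2 and 3, and 1, 10 and 1 without Tn replicate 1, 2 and 3, with 3 or 4 rises in each case. Klrc1, which encodes the inhibitory chain NKG2A, was at 8.02, 0.409 and 10.6 CPM in Tn and 265, 211 and 352 CPM in Tex (log2 fold change 5.43, SE 0.8, adjusted p = 2.1e-04), and Klrk1 of the activating receptor NKG2D rose (2.68). Klrb1c, which encodes NK1.1, was at 15.6, 1.63 and 28.9 CPM in Tn and 1.32, 0 and 0.468 CPM in Tex (log2 fold change -4.68, SE 1.19, adjusted p = 0.006). The call was lost against Tn replicate 2 alone, at a log2 fold change of -1.47.

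Transcription factors of effector fate rose more often than they fell. Of 28 such genes 15 rose and 5 fell (median 1.0). Zbtb32, a zinc finger repressor of activated lymphocytes, was at 1.99, 0.681 and 1.67 CPM in Tn and 167, 479 and 479 CPM in Tex (log2 fold change 8.0, SE 0.82, adjusted p = 1.9e-05). Tbx21, which encodes the effector factor T-bet, was at 17.3, 3.81 and 28.3 CPM in Tn and 100.1, 113 and 73.3 CPM in Tex (log2 fold change 2.53, SE 0.53, adjusted p = 0.002). Batf3 (5.97), Bhlhe40 (4.29), Irf4 (3.82) and Nfil3 (3.25) rose, while Runx1, a factor of thymocytes and naive cells, was at 61.3, 49.8 and 58.6 CPM in Tn and 2.69, 5.02 and 3.43 CPM in Tex (log2 fold change -3.93, SE 0.35, adjusted p = 7.7e-06). Runx2 rose (3.04) and Runx3 missed the threshold (-0.18, adjusted p = 0.44), so the 3 Runx genes took 3 courses. Eomes was at 54.6, 40.7 and 70.9 CPM in Tn and 40.8, 43.3 and 68.7 CPM in Tex (-0.12, SE 0.42, adjusted p = 0.82). Prdm1, which encodes Blimp-1, was at 5.44, 2.18 and 7.74 CPM in Tn and 1.04, 9.18 and 12.4 CPM in Tex (0.56, SE 0.85, adjusted p = 0.6). Both overlapped between the groups.

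Of the transcription factors associated with exhaustion, 7 of 21 were higher and 8 lower (median 0.15), beside 27.3% and 25.6% of all genes. Tox, a factor required for exhausted cells in chronic infection, was at 27.4, 39.6 and 33.5 CPM in Tn and 10.5, 12.1 and 10.1 CPM in Tex (log2 fold change -1.62, SE 0.3, adjusted p = 8.6e-04), with no overlap. Nr4a3, an orphan nuclear receptor induced by the T cell receptor, was at 39.1, 16.3 and 15.9 CPM in Tn and 176, 549 and 634 CPM in Tex (log2 fold change 4.25, SE 0.69, adjusted p = 4.0e-04). Egr2 (2.56) and Egr3 (1.96), induced by the same receptor, rose. Nr4a1 (1.56) and Nr4a2 (2.3) were called too, but both lost the call without Tex replicate 2 (adjusted p = 0.085 and 0.057), Tn replicate 2 (0.086 and 0.075) or Tn replicate 3 (0.11 and 0.074), and Nr4a1 also without Tex replicate 3 (0.076). Tox and Nr4a3 thus went in opposite directions in Tex. The AP-1 genes Fos, an immediate early gene, at 427, 132 and 117 CPM in Tn and 5.44, 13 and 8.95 CPM in Tex (log2 fold change -4.62, SE 0.65, adjusted p = 1.6e-04), and Jun (-2.32) fell. Fos was highest in Tn replicate 1.

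Signalling genes of the T cell receptor pathway were 5 higher (17.9%) and 12 lower (42.9%) of 28, beside 27.3% and 25.6% of all genes. Pag1, an adaptor that recruits the inhibitory kinase Csk, was at 244, 221 and 214 CPM in Tn and 28.6, 24.8 and 28.7 CPM in Tex (log2 fold change -3.05, SE 0.15, adjusted p = 3.0e-07), and Cblb, a ubiquitin ligase that restrains activation, was at 146, 153 and 137 CPM in Tn and 558, 393 and 536 CPM in Tex (log2 fold change 1.77, SE 0.21, adjusted p = 4.5e-05). Negative regulators were thus among both the rises and the falls. The kinase gene Zap70 (-0.1, adjusted p = 0.65) missed the threshold. Of 25 feedback inhibitors 9 rose (36%) and 7 fell (28%), near the 27.3% and 25.6% of all genes (median 0.02). Rgs16 was at 6.1, 1.29 and 3.22 CPM in Tn and 1009, 758 and 673 CPM in Tex (log2 fold change 7.84, SE 0.63, adjusted p = 4.4e-06), and Cish (5.01) and Socs2 (4.89), targets of IL-2 signalling through STAT5, rose. Dusp1, a MAPK phosphatase, was at 338, 125 and 93.5 CPM in Tn and 7.14, 17.3 and 14.9 CPM in Tex (log2 fold change -3.82, SE 0.48, adjusted p = 7.9e-05), while its relatives Dusp4 (5.13) and Dusp14 (4.87) rose.

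Genes of DNA replication and mitosis rose nearly throughout. Of 37 S phase and origin licensing genes 36 rose (median 2.42), and of 31 G2 and M phase genes 29 rose (median 4.6). None fell in either list. In the comparison with Tn replicate 2 alone 32 and 28 rose. Mki67, the proliferation marker Ki-67, was at 40.04, 16.7 and 36.1 CPM in Tn and 304, 715 and 809 CPM in Tex (log2 fold change 4.3, SE 0.55, adjusted p = 8.4e-05). Ccnb1, cyclin B1, which drives entry into mitosis, was at 3.38, 2.38 and 3.12 CPM in Tn and 42.4, 241 and 186 CPM in Tex (log2 fold change 5.72, SE 0.92, adjusted p = 3.7e-04), and Mcm10, which starts origin firing, at 2.85, 0.953 and 2.53 CPM in Tn and 41, 113 and 112 CPM in Tex (log2 fold change 5.38, SE 0.61, adjusted p = 3.6e-05). Myc, which drives growth, was at 122.5, 149 and 122.8 CPM in Tn and 463, 493 and 316 CPM in Tex (log2 fold change 1.69, SE 0.23, adjusted p = 1.3e-04). Tex replicate 1 was the lowest Tex library for Mki67, Ccnb1 and Mcm10.

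The G2 and M phase genes took 0.0364, 0.0242 and 0.0371% of counts in Tn and 0.188, 0.599 and 0.57% in Tex, a rise seen in every Tex library. An exact permutation test of 3 against 3 libraries cannot go below p = 0.10, which it gave. Over the members, the median of log2(CPM + 0.5) above the Tn mean was 3.01, 4.85 and 4.78 in the Tex libraries. For p53 target genes the same medians were 1.82, 0.66 and 0.68, and their share of counts was 0.317, 0.119 and 0.144%, so Tex replicate 1 was low for mitotic genes and high for p53 targets. Cdkn1a, which encodes the CDK inhibitor p21 and is a p53 target, was at 6.7, 0.477 and 1.56 CPM in Tn and 698, 218 and 251 CPM in Tex (log2 fold change 7.07, SE 1.12, adjusted p = 3.4e-04). It was highest in Tex replicate 1. Of 19 p53 targets 11 rose and 2 fell, 4 and 1 against Tn replicate 2 alone.

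Promoters of 4 G2 and M phase genes that hold both motifs of this class are shown, as 150 bases before the start site, from RefSeq in GRCm38.p6. Capitals mark CCAAT and TTTGAA on either strand, the CCAAT box and the cell cycle homology region.
Cdk1, chr10:69352913-69353062, minus strand: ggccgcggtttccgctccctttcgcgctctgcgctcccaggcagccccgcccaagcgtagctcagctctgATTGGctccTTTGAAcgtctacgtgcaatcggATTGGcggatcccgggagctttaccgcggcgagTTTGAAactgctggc
Cdc20, chr4:118437344-118437493, minus strand: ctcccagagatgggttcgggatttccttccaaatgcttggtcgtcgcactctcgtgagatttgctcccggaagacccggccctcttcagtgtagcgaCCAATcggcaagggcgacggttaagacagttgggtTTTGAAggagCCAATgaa
Ube2c, chr2:164769779-164769928, plus strand: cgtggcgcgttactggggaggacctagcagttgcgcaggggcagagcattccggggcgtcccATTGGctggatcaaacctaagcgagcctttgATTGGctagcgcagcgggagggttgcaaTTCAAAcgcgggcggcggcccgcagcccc
Prc1, chr7:80294326-80294475, plus strand: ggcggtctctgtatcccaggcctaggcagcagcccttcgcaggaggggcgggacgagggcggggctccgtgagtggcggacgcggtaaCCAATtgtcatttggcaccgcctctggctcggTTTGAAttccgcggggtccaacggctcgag
In the 250 bases before the start, CCAAT was found on either strand in 22 of 26 matched G2 and M phase genes (84.6%) and in 40.5% of 10130 tested genes with a listed promoter. TTTGAA was found in 10 of 26 (38.5%) beside 13% of those genes. Of 30 matched S phase genes 20 held CCAAT (66.7%) and 4 held TTTGAA (13.3%). GGCGGGAA, a core of E2F motifs, was in 4 of 30 S phase genes (13.3%), in none of the 26 G2 and M phase genes and in 4.06% of all. These are matches of letters in a window and show neither binding nor a cause. The 4 genes shown, Cdk1 (5.43), Cdc20 (4.0), Ube2c (5.57) and Prc1 (3.5), all rose on the log2 scale.

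Around these lists, regulators of G1 were 16 higher and 5 lower of 27. Ccnd2 (1.34, adjusted p = 0.14 against Tn replicate 2 alone), Cdk6 (2.55), E2f1 (2.87) and E2f8 (4.2) rose, and Cdkn1b, which encodes the quiescence factor p27, fell (-1.81). Ccnd1, a D-type cyclin little used by lymphocytes, was at 11.9, 3.95 and 8.38 CPM in Tn and 0.824, 0.27 and 0.364 CPM in Tex (log2 fold change -4.04, SE 0.72, adjusted p = 7.0e-04). Of 22 DNA repair genes of homologous recombination and the Fanconi pathway 17 rose and none fell. Rad54l, a motor of strand exchange, was at 2.12, 1.02 and 2.2 CPM in Tn and 30.7, 56.5 and 68.5 CPM in Tex (log2 fold change 4.85, SE 0.46, adjusted p = 1.1e-05). Of 27 kinesin genes 16 rose and 2 fell, and 4 fell without Tex replicate 1. The mitotic motor Kif2c was at 1.92, 0.681 and 2.42 CPM in Tn and 20.2, 97.4 and 79.7 CPM in Tex (log2 fold change 5.27, SE 0.82, adjusted p = 2.9e-04), while Kif21b, a motor of interphase microtubules, was at 1169.8, 1084 and 1132 CPM in Tn and 185, 162 and 255 CPM in Tex (log2 fold change -2.49, SE 0.23, adjusted p = 9.2e-06).

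**Figure D2:**
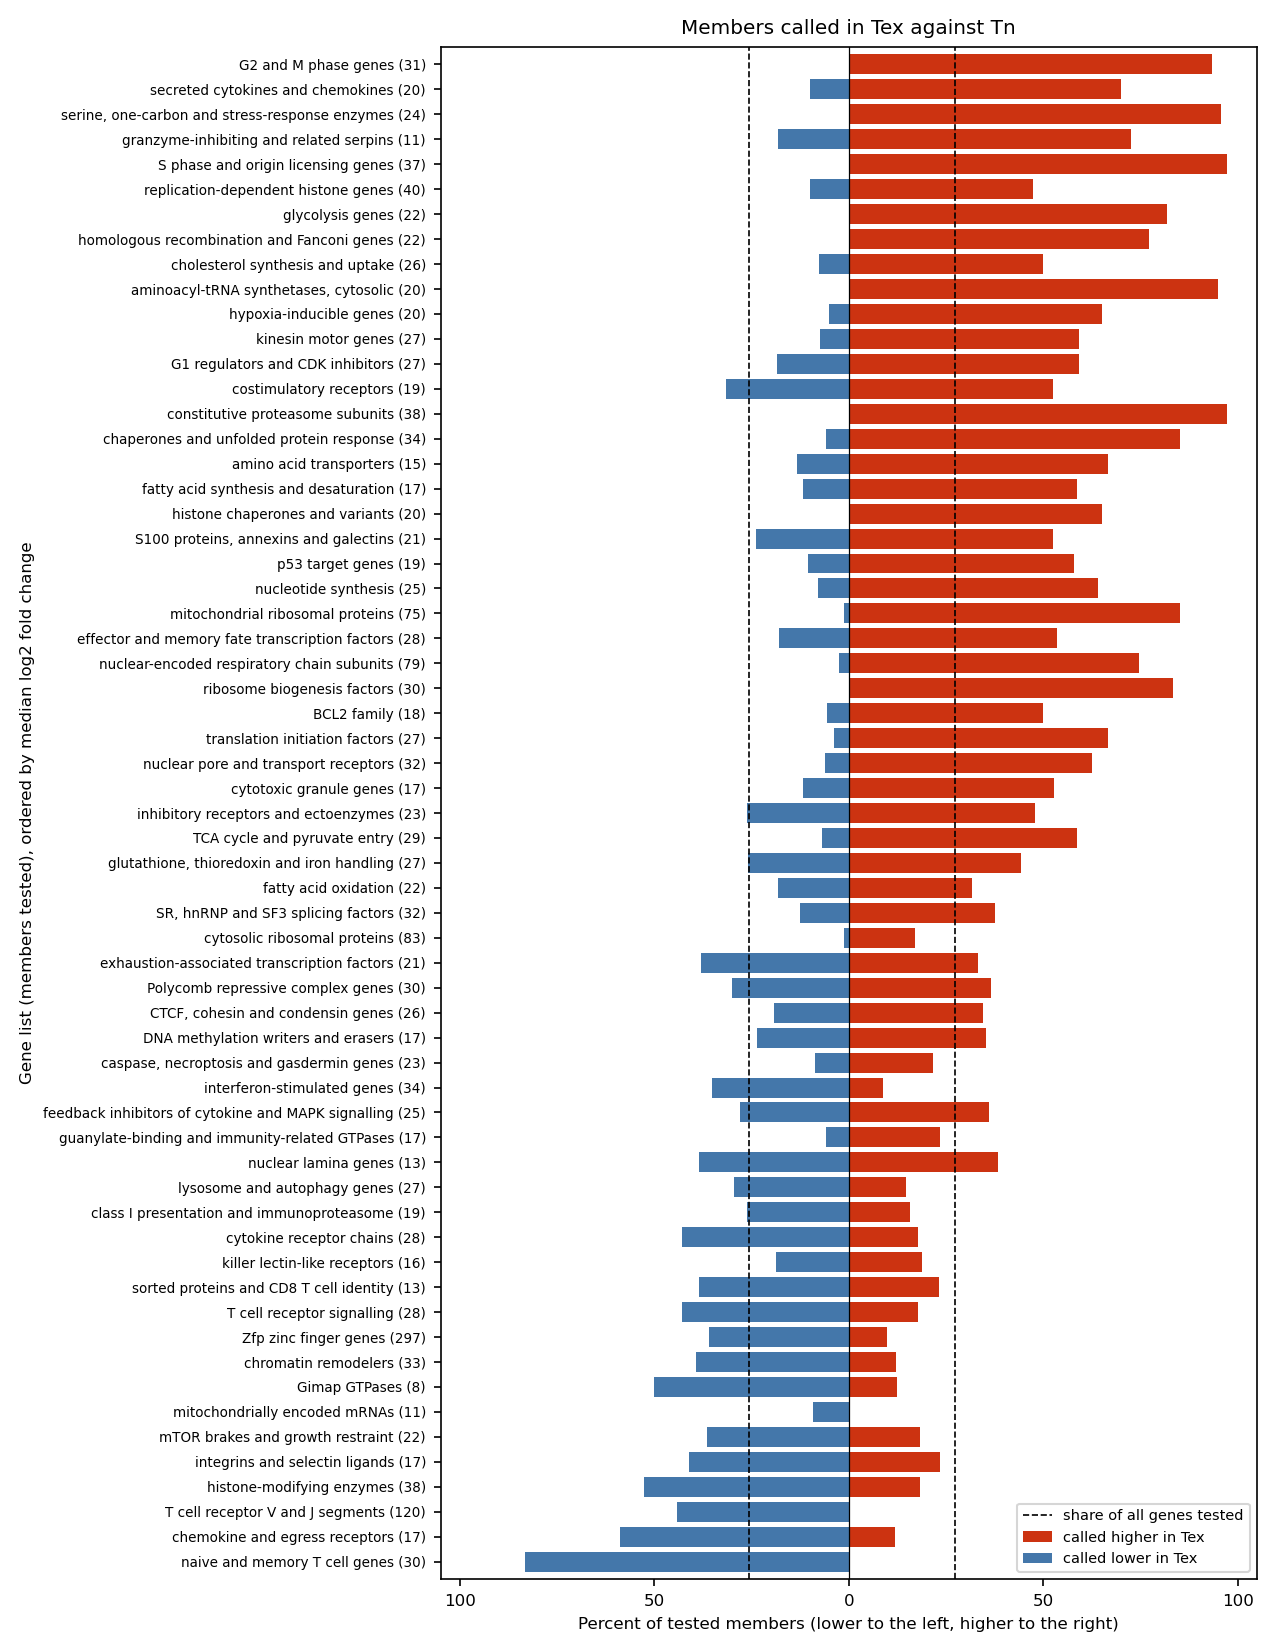
Percent of tested members called higher (right, red) and lower (left, blue) in Tex against Tn for 61 gene lists, ordered by median log2 fold change, with the number tested in brackets and dashed lines at the shares over all genes (27.3% and 25.6%). The S phase, G2 and M phase, serine, tRNA synthetase and proteasome lists reach over 90% on the right, and naive T cell genes 83.3% on the left.

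Enzymes of serine, one-carbon and stress-response metabolism rose nearly without exception, 23 of 24 (median 3.41, none lower). Against Tn replicate 2 alone 18 rose. These genes make serine, glycine, asparagine, proline and cysteine and feed carbon into nucleotides, and many are targets of the stress factor ATF4. Phgdh (2.91), Psat1 (4.25) and Psph (2.21), the 3 steps of serine synthesis, rose, as did Shmt2 (1.94) and Mthfd2 (3.69) of the mitochondrial folate cycle. Asns, asparagine synthetase, was at 1.66, 0.272 and 0.914 CPM in Tn and 211, 223 and 353 CPM in Tex (log2 fold change 8.1, SE 0.63, adjusted p = 3.6e-06). Pycr1, which completes proline synthesis, was at 1.13, 0.341 and 0.376 CPM in Tn and 31.9, 20.6 and 54.9 CPM in Tex (log2 fold change 5.87, SE 0.72, adjusted p = 6.2e-05). Atf3, a stress-induced transcription factor, was at 12.7, 0.204 and 0.86 CPM in Tn and 94.7, 103 and 93.6 CPM in Tex (log2 fold change 4.41, SE 0.95, adjusted p = 0.0023). Chac1 (7.98) and Trib3 (5.7), further ATF4 targets, rose, and Atf4 itself rose by 1.4. All 3 Tex libraries were high, with list medians of log2(CPM + 0.5) above the Tn mean of 3.6, 2.82 and 3.39, so replicate 1 did not stand lower here.

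The composite element bound by C/EBP and ATF factors, TGATGNAA, is shown in capitals on either strand in the 150 bases before the start of 4 of the genes that hold it, 3 from this list and Tars from the tRNA synthetases, from RefSeq in GRCm38.p6.
Asns, chr6:7693210-7693359, minus strand: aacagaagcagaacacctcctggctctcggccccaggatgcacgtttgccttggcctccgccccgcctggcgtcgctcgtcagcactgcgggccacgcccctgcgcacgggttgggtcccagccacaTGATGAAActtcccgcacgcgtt
Pycr1, chr11:120643749-120643898, minus strand: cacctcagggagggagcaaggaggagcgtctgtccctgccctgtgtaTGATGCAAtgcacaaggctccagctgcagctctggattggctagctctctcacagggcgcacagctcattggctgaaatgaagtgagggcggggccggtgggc
Atf3, chr1:191183334-191183483, minus strand: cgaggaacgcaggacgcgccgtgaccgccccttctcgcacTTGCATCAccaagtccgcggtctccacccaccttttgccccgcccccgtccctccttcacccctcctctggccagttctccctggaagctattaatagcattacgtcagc
Tars, chr15:11399659-11399808, minus strand: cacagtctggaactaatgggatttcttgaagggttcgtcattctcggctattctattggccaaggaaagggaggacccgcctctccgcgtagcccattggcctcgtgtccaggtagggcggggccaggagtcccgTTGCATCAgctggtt
In the 250 bases before the start it was found in 6 of 21 matched genes of this list (28.6%), in 3 of 13 matched tRNA synthetase genes (23.1%) and in 2.44% of all 10130 genes. The search used both strands, and a match is a description of the letters only.

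Cytosolic aminoacyl-tRNA synthetases, which load amino acids onto tRNAs, rose in 19 of 20 cases (median 1.69), 13 against Tn replicate 2 alone. Gars, for glycine, was at 81.7, 94.8 and 81.9 CPM in Tn and 321, 452 and 546 CPM in Tex (log2 fold change 2.35, SE 0.28, adjusted p = 5.0e-05). Farsa alone missed the threshold (0.42, adjusted p = 0.18). Amino acid transporters were 10 higher and 2 lower of 15, and 4 were lower without Tn replicate 2. Slc6a9, a glycine transporter, was at 0.331, 0.272 and 0.484 CPM in Tn and 34.5, 18.1 and 41 CPM in Tex (log2 fold change 6.38, SE 0.62, adjusted p = 1.3e-05). Slc1a4 (5.77), Slc7a11 (4.98) and Slc7a5 (3.72), which carry neutral amino acids, cystine and large neutral amino acids, rose. Slc43a2, another carrier of large neutral amino acids, was at 131, 153 and 139 CPM in Tn and 29.6, 33.8 and 27.3 CPM in Tex (log2 fold change -2.22, SE 0.21, adjusted p = 1.1e-05).

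Glycolysis genes rose in 18 of 22 cases and fell in none (median 2.07), but the Tex libraries differed in extent. Against Tn replicate 2 alone the list median was 2.04. Hk2, the inducible hexokinase, was at 8.75, 3.06 and 5.59 CPM in Tn and 139, 217 and 148 CPM in Tex (log2 fold change 4.85, SE 0.44, adjusted p = 8.9e-06). Slc16a3, which exports lactate, was at 4.38, 2.79 and 4.35 CPM in Tn and 65, 410.3 and 124 CPM in Tex (log2 fold change 5.69, SE 0.81, adjusted p = 1.7e-04). Slc2a1, the glucose transporter GLUT1, was at 52, 40.1 and 46.5 CPM in Tn and 107, 239 and 88.7 CPM in Tex (log2 fold change 1.65, SE 0.45, adjusted p = 0.0089). That call was lost against Tn replicate 2 alone, at a log2 fold change of 1.84. Tex replicate 2 was the highest for all 3 genes. The glycolysis list took 0.761, 2.11 and 1.14% of counts in Tex and 0.253, 0.297 and 0.271% in Tn. Hypoxia-inducible genes, which share Slc2a1 with the glycolysis list, were 13 higher and 1 lower of 20. Ak4, a mitochondrial adenylate kinase, was at 0.398, 0.477 and 0.215 CPM in Tn and 6.04, 52.8 and 9.83 CPM in Tex (log2 fold change 5.98, SE 1.13, adjusted p = 0.0011), again highest in replicate 2. The Ak4 call was lost against Tn replicate 2 alone, at a log2 fold change of 5.55. Pdk1, which keeps pyruvate out of the mitochondrion and is also hypoxia-inducible, fell from 307, 393 and 334 to 43.4, 162 and 86.5 CPM (log2 fold change -1.83, SE 0.42, adjusted p = 0.0035), while its relative Pdk3 rose (1.46, adjusted p = 0.13 against Tn replicate 2 alone).

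Genes for mitochondrial proteins are given by the genome that encodes them. Nuclear-encoded subunits of the respiratory chain were 59 higher and 2 lower of 79 (median 0.96). Of 11 mRNAs of the mitochondrial genome none rose and 1 fell (median -0.49, range -0.84 to -0.23). The member that fell, mt-Nd2, was at 1597, 1686 and 1199 CPM in Tn and 1027, 942 and 784 CPM in Tex (log2 fold change -0.7, SE 0.21, adjusted p = 0.015), and its call was lost without Tex replicate 3 or Tn replicate 2 (adjusted p = 0.07 and 0.054). Without Tex replicate 1, 3 fell. Their shares of counts were 0.571, 0.601 and 0.606% in Tn and 0.94, 1.22 and 1.2% in Tex for the nuclear list, and 2.03, 2.15 and 1.56% and 1.53, 1.51 and 1.26% for the mitochondrial one. Proteins of the mitochondrial ribosome, also nuclear-encoded, rose in 64 of 75 cases and fell in 1 (median 1.05). With only Tn replicate 2 as control, 23 respiratory and 26 ribosomal genes rose. Mrps6 was at 6.63, 6.27 and 6.07 CPM in Tn and 60.8, 48.7 and 34 CPM in Tex (log2 fold change 2.92, SE 0.23, adjusted p = 4.5e-06). TCA cycle genes were 17 higher and 2 lower of 29 (median 0.65), among them Cs (1.1) and Mdh2 (1.31). The number of TCA cycle genes that rose was 10 without Tex replicate 3, 10 and 11 without Tn replicate 1 and 3, and 4 against Tn replicate 2 alone, where the calls of Cs and Mdh2 were lost (adjusted p = 0.12 and 0.099).

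Cholesterol genes depended on the library. Cholesterol synthesis and uptake genes were 13 higher and 2 lower of 26 (median 1.77). The list medians above Tn were 0.41, 2.28 and 1.98 in Tex replicates 1, 2 and 3. Without Tex replicate 1, 20 rose. Against Tn replicate 2 alone the list median was 1.70. Cyp51, which removes a methyl group of lanosterol, was at 14.3, 17.1 and 20.5 CPM in Tn and 63.9, 309 and 248.7 CPM in Tex (log2 fold change 3.58, SE 0.81, adjusted p = 0.0032). Its call was lost against Tn replicate 2 alone, at a log2 fold change of 3.58. The cholesterol exporters Abca1, at 62, 91.7 and 71.7 CPM in Tn and 4.999, 4.7 and 8.06 CPM in Tex (log2 fold change -3.66, SE 0.36, adjusted p = 1.3e-05), and Abcg1 (-2.27) were the 2 members that fell. Fatty acid synthesis genes were 10 higher and 2 lower of 17 (median 1.18). The medians of this list above Tn were 0.22, 1.67 and 1.69 in Tex replicates 1, 2 and 3, so replicate 1 again lay closest to Tn. Again 10 rose without Tex replicate 1, while 6 rose without Tn replicate 1 or without Tn replicate 3. Against Tn replicate 2 alone the list median was 1.37. Fads2, a fatty acid desaturase, was at 0.398, 0.136 and 0.537 CPM in Tn and 0.989, 89.2 and 73.4 CPM in Tex (log2 fold change 7.19, SE 2.22, adjusted p = 0.017). It was high in 2 of the 3 Tex libraries, and the call was lost without any of the Tn libraries (adjusted p = 0.056, 0.056 and 0.052 without replicates 1, 2 and 3). Scd2 (3.76) and Fabp5 (3.98) rose. Fatty acid oxidation genes, 7 higher and 4 lower of 22, lay near the background, and 4 rose without Tn replicate 1. Cpt1a, which admits fatty acids to the mitochondrion, was at 119.8, 99.9 and 108 CPM in Tn and 51.5, 45.4 and 63.6 CPM in Tex (log2 fold change -1.03, SE 0.29, adjusted p = 0.0097), with an adjusted p of 0.13 against Tn replicate 2 alone.

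Nucleotide synthesis genes were 16 higher and 2 lower of 25. Tk1, thymidine kinase, was at 16.7, 8.78 and 17.6 CPM in Tn and 67.1, 162 and 130.2 CPM in Tex (log2 fold change 3.06, SE 0.39, adjusted p = 9.0e-05). Ctps rose (1.91) and its relative Ctps2 fell (-1.26), both CTP synthases. Antioxidant and iron genes were 12 higher (44.4%) and 7 lower (25.9%) of 27, beside 27.3% and 25.6% of all genes, so the falls lay near the background. Tfrc, the transferrin receptor that imports iron (3.04), Txn1 (3.13) and Prdx4 (3.32) rose, while Slc40a1, the exporter described above, and the ferritin chain Fth1 (-0.85) fell.

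Most lists of genes that make, fold and degrade protein rose in a majority of their members, but ribosomal proteins and lysosome and autophagy genes did not. Ribosome biogenesis factors rose in 25 of 30 cases (median 0.93), 8 against Tn replicate 2 alone. Nhp2, of the particles that guide rRNA modification, was at 62.8, 60.5 and 56.1 CPM in Tn and 214, 273 and 205 CPM in Tex (log2 fold change 1.95, SE 0.27, adjusted p = 1.5e-04). Translation initiation factors were 18 higher and 1 lower of 27. Eif2s2, the beta subunit of eIF2, was at 94.1, 80.8 and 86.3 CPM in Tn and 247, 331 and 479.6 CPM in Tex (log2 fold change 2.02, SE 0.28, adjusted p = 1.3e-04). The helicase genes Eif4a1 and Eif4a2 parted, Eif4a1 rising by 1.02 (adjusted p = 0.089 against Tn replicate 2 alone) and Eif4a2 at 946, 888 and 765 CPM in Tn and 481, 399.9 and 370.3 CPM in Tex (log2 fold change -1.05, SE 0.18, adjusted p = 5.6e-04). Cytosolic ribosomal proteins were 14 higher and 1 lower of 83 (median 0.19), and 9 rose without Tn replicate 3. With upper-quartile factors 10 rose and 5 fell. Their share of counts was 10.8, 10.9 and 9.98% in Tn and 12.3, 10.5 and 10.8% in Tex (exact permutation p = 0.60). The relatives Rps27, at 1460.1, 1268 and 1108 CPM in Tn and 800.5, 541 and 593 CPM in Tex (log2 fold change -0.99, SE 0.19, adjusted p = 0.001), and Rps27l, at 16, 26.8 and 26.5 CPM in Tn and 152, 179.6 and 155 CPM in Tex (log2 fold change 2.81, SE 0.34, adjusted p = 5.7e-05), moved in opposite directions.

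Proteasome subunits rose in 37 of 38 cases (median 1.22, range 0.45 to 2.05). Against Tn replicate 2 alone the list median was 1.14. Psmg3, an assembly chaperone, was at 6.76, 9.33 and 11.8 CPM in Tn and 30.7, 49.8 and 35.1 CPM in Tex (log2 fold change 2.05, SE 0.31, adjusted p = 2.3e-04). Chaperones and genes of the unfolded protein response were 29 higher and 2 lower of 34, 13 and 2 against Tn replicate 2 alone. Sdf2l1, of the endoplasmic reticulum, was at 13.8, 12.1 and 14.6 CPM in Tn and 73.7, 106 and 55.9 CPM in Tex (log2 fold change 2.54, SE 0.42, adjusted p = 4.4e-04). The mitochondrial chaperonin Hspd1 (2.26) and the cytosolic chaperonin subunit Tcp1 (1.77) rose. Dnajb9, another endoplasmic reticulum chaperone, fell, at 159, 68.6 and 27.6 CPM in Tn and 16.5, 7.72 and 7.86 CPM in Tex (log2 fold change -2.99, SE 0.56, adjusted p = 0.001). Lysosome and autophagy genes were 4 higher (14.8%) and 8 lower (29.6%) of 27, beside 27.3% and 25.6% of all genes. Gabarapl1, which coats autophagosomes, was at 10.9, 4.84 and 6.4 CPM in Tn and 129, 104 and 116 CPM in Tex (log2 fold change 3.98, SE 0.29, adjusted p = 2.7e-06). Ctsh, a cathepsin, was at 32.8, 4.36 and 41 CPM in Tn and 0.385, 0.054 and 0.104 CPM in Tex (log2 fold change -7.13, SE 1.12, adjusted p = 3.2e-04), with its lowest naive level in Tn replicate 2 like the B cell and macrophage markers.

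**Figure D3:**
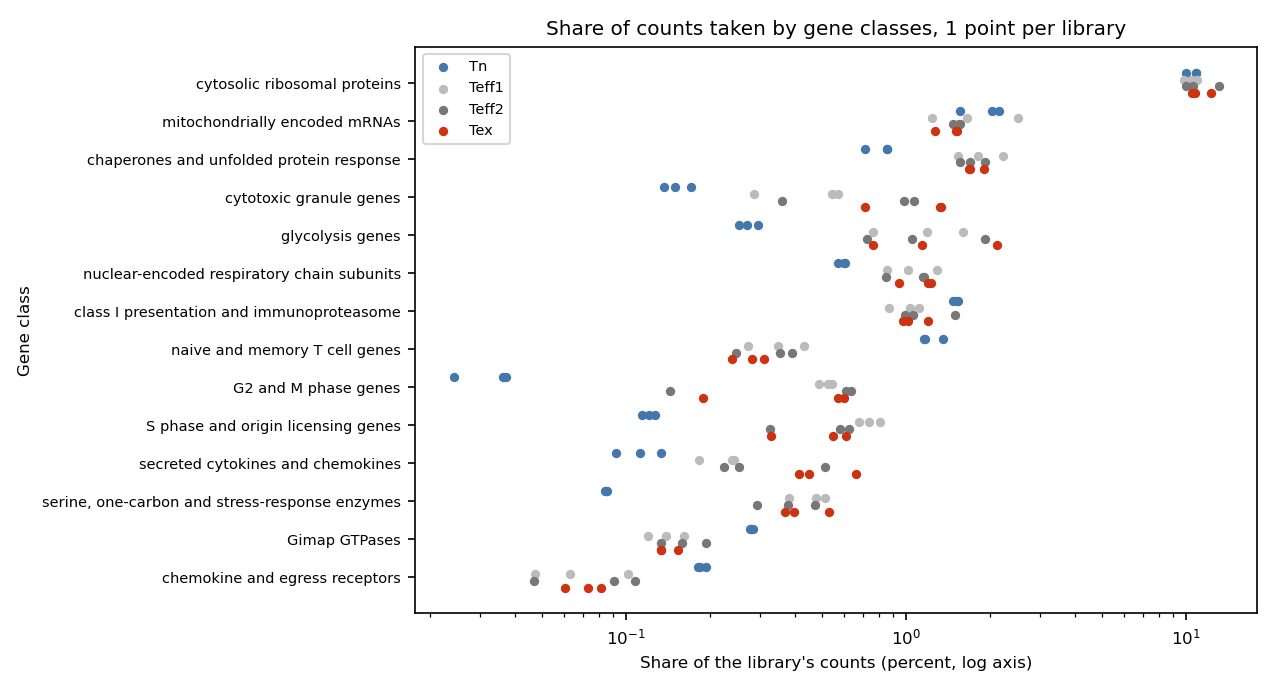
Share of a library's counts taken by 14 gene classes, in percent on a log axis, with 1 point per library. Ribosomal proteins stay near 10% in all groups. The G2 and M phase class lies under 0.04% in Tn and at 0.188, 0.599 and 0.57% in Tex.

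The lists of the interferon response differed from each other. Of 34 interferon-stimulated genes 12 fell and 3 rose although the median was 0.03, and the list medians above Tn were -1.18, 0.02 and 0.06 in the Tex libraries. Ifit3, an antiviral RNA-binding protein, was at 16.8, 22.9 and 23.1 CPM in Tn and 0.33, 0.864 and 0.728 CPM in Tex (log2 fold change -5.01, SE 0.42, adjusted p = 5.6e-06). Oas2 (-4.78) and Ifit1 (-3.12) fell too. Ly6a, which encodes Sca-1 and is induced by interferons on T cells, was at 22.6, 10.5 and 29.2 CPM in Tn and 277, 309 and 309.9 CPM in Tex (log2 fold change 3.84, SE 0.36, adjusted p = 1.1e-05). Guanylate-binding and immunity-related GTPases, the best known targets of interferon gamma, were 4 higher (23.5%) and 1 lower (5.88%) of 17. Over all genes the shares were 27.3% and 25.6%. Without Tex replicate 1, 4 of these GTPases were lower. Gbp5 was at 29.4, 31 and 40.8 CPM in Tn and 127, 162 and 161 CPM in Tex (log2 fold change 2.15, SE 0.29, adjusted p = 1.3e-04), and Gbp9 at 187, 209 and 216 CPM in Tn and 88.6, 45.1 and 66.4 CPM in Tex (log2 fold change -1.61, SE 0.37, adjusted p = 0.0032). Class I presentation genes were 3 higher (15.8%) and 5 lower (26.3%) of 19, the falls near the share over all genes, and 1 was higher without Tn replicate 1. H2-Q7, a nonclassical class I gene with close copies that may share reads, was at 1008, 1087 and 1157 CPM in Tn and 310.2, 458 and 446 CPM in Tex (log2 fold change -1.42, SE 0.17, adjusted p = 6.1e-05). Psme2, an activator of the proteasome, was at 114, 165 and 166 CPM in Tn and 270.1, 219 and 253 CPM in Tex (log2 fold change 0.74, SE 0.2, adjusted p = 0.0087), a call lost against Tn replicate 2 alone (adjusted p = 0.17).

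Survival genes changed in part. Of 18 BCL2 family genes 9 rose and 1 fell. Bcl2, which protects resting T cells, was at 191, 239.9 and 172 CPM in Tn and 427, 345 and 337 CPM in Tex (log2 fold change 0.88, SE 0.27, adjusted p = 0.017). This call was lost without Tn replicate 1 or 3 (adjusted p = 0.055 and 0.066). Bcl2l1 of the related protector BCL-XL rose (3.64), and Bcl2a1d, with close copies that may share reads, was at 5.77, 1.63 and 4.62 CPM in Tn and 42.8, 58.9 and 78.1 CPM in Tex (log2 fold change 3.9, SE 0.52, adjusted p = 1.1e-04). The pro-apoptotic Bax rose with them (1.08, adjusted p = 0.14 against Tn replicate 2 alone). Of 23 caspase, necroptosis and gasdermin genes 5 rose (21.7%) and 2 fell (8.7%), below the 27.3% and 25.6% of all genes, and 16 were not called. With upper-quartile factors 5 fell. Mlkl, the effector of necroptosis, was at 0.862, 0.477 and 1.13 CPM in Tn and 34.6, 38.3 and 39.6 CPM in Tex (log2 fold change 5.48, SE 0.3, adjusted p = 4.2e-07). Gsdmd, the pore protein of pyroptosis, was at 71.8, 88.1 and 97 CPM in Tn and 48.8, 44.7 and 41.6 CPM in Tex (log2 fold change -0.93, SE 0.17, adjusted p = 9.0e-04). Gimap GTPases, survival factors of resting lymphocytes, were 4 lower and 1 higher of 8, with Gimap6 at 1085, 681 and 610.4 CPM in Tn and 269.5, 251 and 253 CPM in Tex (log2 fold change -1.62, SE 0.22, adjusted p = 1.3e-04). The Gimap7 rise (0.84, adjusted p = 0.048) overlapped between the groups and was lost under 9 of 14 alternatives, among them without Tex replicate 2 or 3 and without Tn replicate 1 or 3 (adjusted p = 0.14, 0.16, 0.17 and 0.09).

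S100 proteins, annexins and galectins were 11 higher (52.4%) and 5 lower (23.8%) of 21, beside 27.3% and 25.6% of all genes. With Tn replicate 1 or Tn replicate 3 left out, 3 were lower. Lgals3, which encodes galectin-3, was at 20.2, 2.996 and 7.69 CPM in Tn and 532, 81.1 and 175 CPM in Tex (log2 fold change 4.68, SE 0.97, adjusted p = 0.0018), with the highest level in Tex replicate 1. Lgals1 (3.96) and Anxa2 (4.07) rose. S100a4 was at 14.3, 2.38 and 10.4 CPM in Tn and 3.46, 2.05 and 1.3 CPM in Tex (log2 fold change -1.99, SE 0.71, adjusted p = 0.034), and its groups overlapped. Against Tn replicate 2 alone the S100a4 log2 fold change was -0.09. Its adjusted p was 0.093 and 0.11 without Tex replicate 2 and 3, and 0.14 and 0.085 without Tn replicate 1 and 3.

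**Figure D4:**
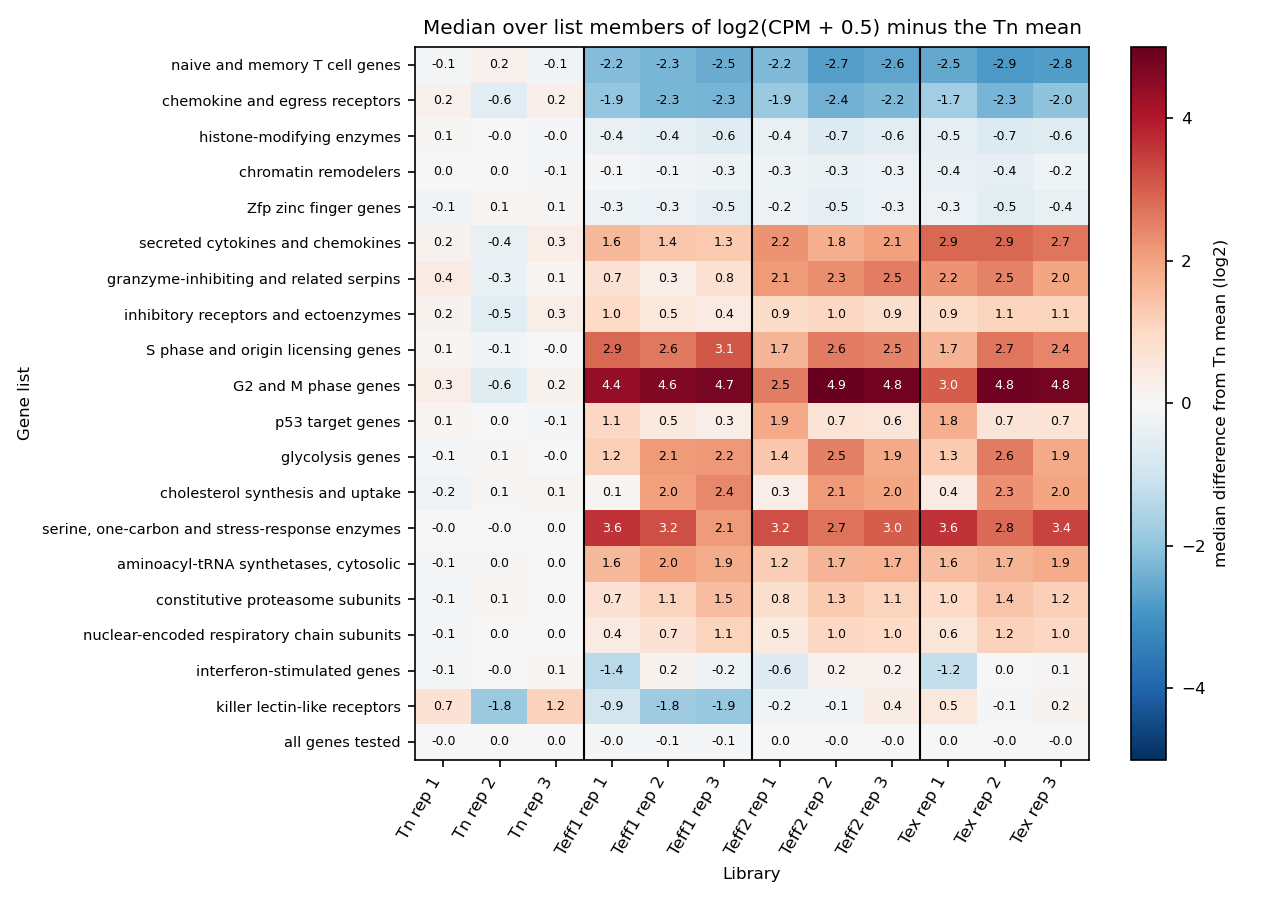
Median over list members of log2(CPM + 0.5) minus the Tn mean, for 19 lists and all genes tested (rows) in each of the 12 libraries (columns). Red is above and blue below the Tn mean. Tex replicate 1 is paler than Tex replicates 2 and 3 for the G2 and M phase, glycolysis and cholesterol lists and darker for p53 targets, and the Teff2 library of the same number shows the same pattern.

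Among genes that act on chromatin, histone-modifying enzymes and remodelers fell more often than they rose, while Polycomb, architecture and histone chaperone genes did not. Of 38 histone-modifying enzymes 20 fell and 7 rose (median -0.66), 13 and 1 against Tn replicate 2 alone. The acetyltransferase genes Crebbp (-2.09) and Ep300 (-1.01) and the methyltransferase genes Setd1b (-1.9) and Setd2 (-1.11) fell. Hdac9, a class II deacetylase, was at 6.83, 1.91 and 8.33 CPM in Tn and 0.33, 0 and 0.052 CPM in Tex (log2 fold change -5.42, SE 1.1, adjusted p = 0.0016), a call lost against Tn replicate 2 alone (adjusted p = 0.069). Suv39h2, which methylates histone H3 in heterochromatin, was at 5.5, 3.34 and 3.55 CPM in Tn and 10.7, 18.6 and 16.6 CPM in Tex (log2 fold change 1.89, SE 0.31, adjusted p = 4.1e-04), and Prmt1 (1.49) and Prmt5 (1.12) rose (adjusted p = 0.052 and 0.059 against Tn replicate 2 alone). Of 33 remodelers 13 fell (39.4%) and 4 rose (12.1%), beside 25.6% and 27.3% of all genes. Chd3, of the NuRD complex, was at 974, 895 and 845 CPM in Tn and 147, 112 and 102 CPM in Tex (log2 fold change -2.91, SE 0.29, adjusted p = 1.4e-05), while its relative Chd4 missed the threshold (0.35, adjusted p = 0.12). Hells, which acts at replicating heterochromatin, was at 13.3, 12 and 12 CPM in Tn and 73.2, 144 and 141 CPM in Tex (log2 fold change 3.27, SE 0.32, adjusted p = 1.5e-05). The BAF subunits Smarca2 (-2.32) and Arid1a (-1.59) fell and Smarcc1 rose (1.13).

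Polycomb genes were 11 higher and 9 lower of 30, near the 27.3% and 25.6% of all genes, and some relatives moved in opposite directions. Ezh2, the methyltransferase of dividing cells, was at 30.9, 24.1 and 26 CPM in Tn and 154, 243 and 259 CPM in Tex (log2 fold change 3.02, SE 0.23, adjusted p = 3.4e-06). Phf19 rose (2.88) and its relative Phf1 was at 195, 171 and 228 CPM in Tn and 28.9, 17.7 and 19.3 CPM in Tex (log2 fold change -3.17, SE 0.35, adjusted p = 3.4e-05). Pcgf2 was at 2.39, 0.341 and 2.63 CPM in Tn and 25.4, 22.1 and 22.1 CPM in Tex (log2 fold change 3.68, SE 0.49, adjusted p = 1.1e-04), and Cbx7 fell (-1.97). In DNA methylation, Uhrf1, which guides DNMT1 to replicated DNA, was at 22.7, 14 and 17.5 CPM in Tn and 210.2, 454 and 346 CPM in Tex (log2 fold change 4.22, SE 0.34, adjusted p = 4.6e-06), and Dnmt1 rose (1.03, adjusted p = 0.076 against Tn replicate 2 alone). Tet1, which oxidises methylcytosine, was at 40.6, 46.6 and 38.4 CPM in Tn and 1.98, 3.996 and 2.55 CPM in Tex (log2 fold change -3.88, SE 0.33, adjusted p = 6.7e-06), and Tet3 fell (-0.92, adjusted p = 0.056 against Tn replicate 2 alone). The call of Tet2 (-0.57, adjusted p = 0.043) was lost with any single library left out, with adjusted p of 0.087, 0.11 and 0.088 without Tex replicate 1, 2 and 3 and 0.14, 0.067 and 0.059 without Tn replicate 1, 2 and 3.

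Genes of chromosome architecture had shares near those of all genes. Of 26 CTCF, cohesin and condensin genes 9 rose and 5 fell, beside 27.3% and 25.6% of all genes. Ncapg, a condensin subunit, was at 4.44, 1.36 and 2.96 CPM in Tn and 37.1, 101 and 119.7 CPM in Tex (log2 fold change 4.88, SE 0.64, adjusted p = 1.0e-04), and Ncaph (4.17) and Smc2 (2.57) rose. Nipbl, the cohesin loader, was at 332, 327 and 289.9 CPM in Tn and 186, 103 and 165 CPM in Tex (log2 fold change -1.06, SE 0.26, adjusted p = 0.005), with an adjusted p of 0.053 against Tn replicate 2 alone. The cohesin core genes Smc1a (0.22), Smc3 (0.13) and Rad21 (0.74) missed the threshold. Ctcf, which binds insulators, was at 205, 217 and 217 CPM in Tn and 128, 162 and 171 CPM in Tex (log2 fold change -0.47, SE 0.17, adjusted p = 0.036), a small fall. It was lost under 7 alternatives, among them without Tex replicate 1 or 2 or without any of the Tn replicates (adjusted p = 0.14, 0.068, 0.064, 0.078 and 0.092). Nuclear lamina genes were 5 higher and 5 lower of 13 (38.5% each), and 3 were lower without Tn replicate 1. Lmnb1, lamin B1, was at 54.4, 44.7 and 55.8 CPM in Tn and 130.4, 322 and 228 CPM in Tex (log2 fold change 2.13, SE 0.35, adjusted p = 4.0e-04), and Syne2, which links the nucleus to the cytoskeleton, at 54.3, 56.1 and 53.6 CPM in Tn and 10.8, 6.91 and 10.9 CPM in Tex (log2 fold change -2.52, SE 0.3, adjusted p = 5.6e-05). Nuclear pore and transport genes were 20 higher and 2 lower of 32, led by Kpna2 (3.63).

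Histone chaperones and variants rose in 13 of 20 cases and fell in none. H1f0, a linker histone, was at 9.15, 3.95 and 11.1 CPM in Tn and 44, 126 and 92.3 CPM in Tex (log2 fold change 3.43, SE 0.48, adjusted p = 1.4e-04). Replication-dependent histone genes, whose mRNAs lack a poly(A) tail, were 19 higher and 4 lower of 40 tested, from 67 in the file. In a fit of the Tn and Tex libraries alone 8 were higher. Their share of counts was small and overlapped, at 0.0062, 0.0036 and 0.0048% in Tn and 0.0050, 0.0095 and 0.0055% in Tex (exact permutation p = 0.40). Over the members, the median of log2(CPM + 0.5) above the Tn mean was 0.41, 1.51 and 0.48 in the Tex libraries. Splicing factors of the SR, hnRNP and SF3 groups were 12 higher and 4 lower of 32, but 6 were higher without Tex replicate 2 and 7 without Tn replicate 1 or without Tn replicate 3. Sf3b1, of the U2 particle, was at 852, 875 and 816 CPM in Tn and 345, 416 and 351 CPM in Tex (log2 fold change -1.19, SE 0.15, adjusted p = 6.5e-05). Hnrpll, which drives exon skipping in the CD45 gene on activation, was at 32.2, 27.4 and 29.7 CPM in Tn and 93.1, 134 and 94.5 CPM in Tex (log2 fold change 1.85, SE 0.27, adjusted p = 2.1e-04). Zfp zinc finger genes, mostly repressors of transposons and genes, were 107 lower and 29 higher of 297 (median -0.39). Zfp831 was at 138, 134 and 123.2 CPM in Tn and 13.2, 9.07 and 9.26 CPM in Tex (log2 fold change -3.65, SE 0.29, adjusted p = 3.8e-06), and Zfp948 at 2.65, 3.88 and 4.41 CPM in Tn and 26.6, 25.3 and 16.7 CPM in Tex (log2 fold change 2.64, SE 0.3, adjusted p = 4.1e-05).

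T cell receptor segments differed by kind. No V segment of the alpha chain (Trav) was called among 47 tested, whereas 39 of 43 tested J segments (Traj) fell and none rose. Summed over the locus, Trav reads were at 86.2, 109.8 and 100.1 CPM in Tn and 74.3, 75.9 and 78.8 CPM in Tex. Traj reads were at 182, 97.7 and 131 CPM in Tn and 44.1, 19.1 and 26.5 CPM in Tex, with no overlap. Trac, the constant region that every alpha chain mRNA holds, was at 175, 268 and 212 CPM in Tn and 131, 247 and 179 CPM in Tex (log2 fold change -0.23, SE 0.26, adjusted p = 0.47). Traj7 was at 13, 8.24 and 9.78 CPM in Tn and 3.19, 0.702 and 1.98 CPM in Tex (log2 fold change -2.4, SE 0.5, adjusted p = 0.0018). For the beta chain 9 of 19 tested Trbv and 6 of 11 tested Trbj segments fell. Spliced and unspliced transcripts cannot be told apart in these counts. Over a list of 151 V and J segments, which also takes in gamma and delta chains and leaves out some segments counted above, 53 of 120 tested fell, and 15 with only Tn replicate 2 as control.

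A survey by symbol stem, which used no chosen list, gave 60 families with at least 20 tested members. The 5 highest medians were those of Hist (2.25, or 2.19 with the 3 members at 0 in a group at their bound), Kif (1.44), Mrpl (1.05), Nup (1.01) and Mrps (1.01), families of histones, kinesins, mitochondrial ribosomal proteins and nucleoporins. The histone transcripts were scarce, and their summed share of counts, given above, overlapped between Tn and Tex. The 5 lowest were Traj (-2.26), Arhgap (-1.0), Cd (-0.9), Gpr (-0.77) and Map (-0.59). Among the Arhgap genes, which encode GTPase-activating proteins, 14 of 23 fell and 4 rose. Of 73 genes named Cd for surface antigens 36 fell and 13 rose, and this family includes B cell markers such as Cd180. Of 35 Gpr genes, orphan G protein-coupled receptors for the most part, 15 fell and 6 rose.

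**Figure D5:**
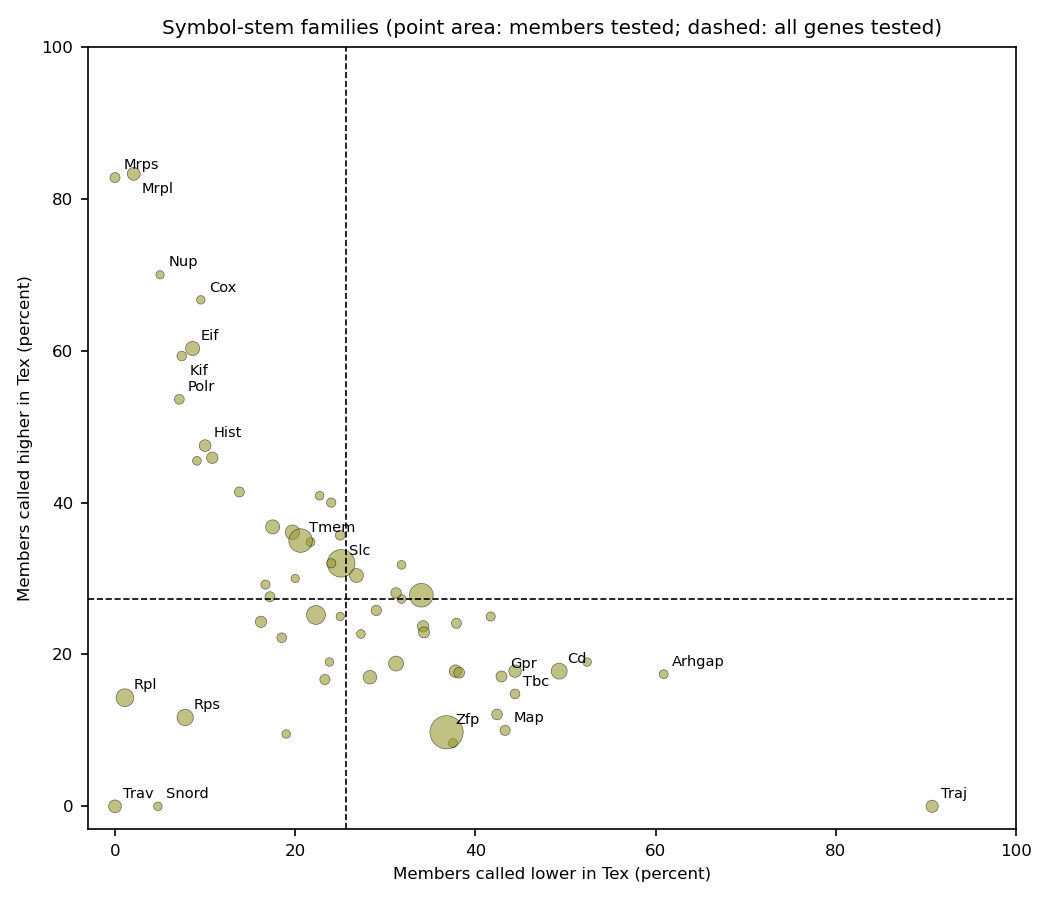
Percent of members called higher in Tex (vertical) against percent called lower (horizontal) for 60 symbol-stem families with at least 20 tested members. Point area grows with the number tested, and dashed lines mark the shares over all genes (27.3% and 25.6%). Mrpl, Mrps, Nup and Cox lie at the upper left, Traj and Arhgap at the lower right, and Rpl, Rps and Trav near the origin.

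Tex was then compared with the other activated states, which share the Tn controls, to show where it differed from them. Against Teff2, the TIM-3- cells of the same day, the fit of 12 libraries called 1 gene higher (0.00698% of 14332) and none lower by edgeR, with 108 genes higher and 143 lower at an unadjusted p under 0.05. That gene was Havcr2, at 0.612, 0.258 and 0.43 CPM in Teff2. It encodes TIM-3, by which Tex and Teff2 were sorted apart, so its difference is not a separate result. Within the replicate pairs of day 5, 126 genes were higher (0.962% of 13096) and 95 lower (0.725%). Of the key genes, Gzma, Prdm1, Ifng, Prf1, Entpd1, Eomes and Cdkn1a were higher in Tex than in Teff2 within pairs, and Tcf7 was lower. The Gzma levels in Tex, given above, were low and in replicate 2 near the floor of 3 counts. Ifng was at 61.1, 1754 and 819.6 CPM in Teff2 and 558, 3282 and 2655 CPM in Tex, higher in each of the 3 pairs (log2 difference 1.89, adjusted p = 0.031). Tcf7 was at 393, 139.8 and 136 CPM in Teff2 and 251, 106 and 70.3 CPM in Tex, lower in each pair (log2 difference -0.67, adjusted p = 0.02). Prdm1, which overlapped between Tn and Tex, was at 0.408, 3.61 and 1.29 CPM in Teff2, below its pair in Tex each time (log2 difference 2.09, adjusted p = 0.027).

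Against Teff1, the day 2 cells, 309 genes were higher in Tex (2.16% of 14332) and 122 lower (0.851%). Among the key genes these were Havcr2 (log2 difference 6.22, adjusted p = 0.0017), whose product TIM-3 also set these gates, and Il7r. Il7r was at 33.4, 61.7 and 23.8 CPM in Teff1 and 84.4, 135 and 201 CPM in Tex (log2 difference 1.82, adjusted p = 0.046). Il7r in Tex thus lay between its Teff1 and its Tn level. For the other key genes the difference between Tex and Teff1 missed the threshold, which does not show that the states had equal levels.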

How the data were processed

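The authors deposited raw counts for 34573 gene symbols in 12 RNA-seq libraries of sorted cells, 11535 of them without a count. A matrix of normalized values that the authors deposited on a log2 scale for 21574 genes, whose transformation is not given in the sources used here, was used in 1 alternative. Tools and build named in the submitters' processing notes are HISAT2, HTSeq, DESeq2 and mm10. Strandedness is not given, so overlapping and antisense genes cannot be told apart. All columns were mapped to libraries by label, and the 4 Hi-C samples were not analysed here.

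Counts were tested with edgeR 4.0.16 (R 4.3.3), quasi-likelihood F test, TMM factors and filterByExpr (14332 genes kept), on the 12 libraries with group as the term, and called at a Benjamini-Hochberg adjusted p under 0.05. The script was tested on simulated counts with a common spread for all genes. It called 12% of genes with a true log2 fold change of 1, 92% at 2 and at -2, and 100% at 3. Among unchanged genes there were 7 false calls. A gene that missed the threshold may therefore still have changed by 1 or less. Lists were described by counts and medians, without a set test. Members and lists were chosen with earlier results of these data known. Named genes were the 8 largest rises and falls with no overlap and a mean of 10 CPM or more in either group (leaving out predicted genes, pseudogenes and receptor segments), the list members with the largest change each way, 32 key genes, and the 5 highest and lowest symbol families. Other members named were chosen after their values were seen. Results of some genes are not reported here. Alternatives were DESeq2 1.42.0, limma 3.58.1 on the log2 values, RLE and upper-quartile factors, no filter, 6 libraries only, a replicate block, each replicate left out, and Tn replicate 2 as the only naive library.

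Tex and Teff2 deviated together by replicate number (r = 0.851, 0.781 and 0.752, against at most 0.119 for unequal numbers), so these were compared within pairs in a fit of the 6 day 5 libraries (13096 genes). Promoters and coordinates are from RefSeq, GRCm38.p6, which matched 73.3% of symbols and a further 6.95% by an older symbol; 26 of 31 G2 and M phase genes had a promoter entry.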

Additional observations from a re-analysis of the deposited data

Results flagged for a closer look

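The change from Tn differed between Tex and the TIM-3- cells of the same day for 16 named genes, by the test of Tex against Teff2 within the 3 replicate pairs (edgeR, adjusted p under 0.05). As log2 differences, Tex was higher for Havcr2 (5.98), Gzma (3.04), Lgals3 (2.15), Prdm1 (2.09), Ifng (1.89), Inhba (1.71), Prf1 (1.49), Entpd1 (1.16), Eomes (0.84), Cdkn1a (0.44) and Sdf2l1 (0.41). Havcr2 encodes TIM-3, by which Tex was sorted apart from Teff2 and Teff1, so its differences are not separate results. Tex was lower for Slamf6 (-1.31), Gbp9 (-0.77), Tcf7 (-0.67), Zfp831 (-0.62) and Ly6a (-0.52). Gzma, Prdm1, Eomes and Entpd1 were genes whose Tex and Tn libraries overlapped, and Gzma was at low levels in Tex. Against the day 2 cells, Tex was higher for 2 key genes, Havcr2 (6.22) and Il7r (1.82).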

How the results depend on the processing

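Across the alternatives other than Tn replicate 2 as the only naive library, 7584 called genes became 6502 to 8021 with a replicate left out and 7460 to 8548 otherwise. Rises (3909) became 3327 to 3943 and 3481 to 4268, falls (3675) 3175 to 4078 and 3664 to 4280. With Tn replicate 2 as the only naive library, whose spread is assumed to be that of the other groups, 3944 genes were called, 1968 higher and 1976 lower, of which 1822 and 1706 changed by at least 1 on the log2 scale, and 710 in place of 1201 list members. Only 50.2% of the 7584 calls remained there and 24 were called in the other direction; 82% to 99.7% remained elsewhere. Limma on the authors' log2 values gave 1587 rises and 1684 falls of at least 1 in place of 2753 and 2592; with a replicate left out they were 2524 to 2894 and 2342 to 3185, and list members 1050 to 1251. Upper-quartile factors moved the median of all genes by -0.12 on the log2 scale. Cytosolic ribosomal proteins were then 10 higher and 5 lower.

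Replicate numbers did not pair Tex and Tn (r = 0.071, 0.136 and 0.028 for equal numbers); each Tex library still correlated best with its own number except Tex replicate 3, and a replicate block called 8548 genes. Under the block on the day 5 libraries 16 named genes in place of 1 differed between Tex and Teff2. Uncalled or library-bound genes changed sign: Entpd1 (0.20) was at -0.0069 with limma and -0.10 with the replicate block, and at -0.84 to 0.65 with a replicate left out; Eomes (-0.12) was at 0.31 with Tn replicate 2 as the only naive library and at -0.38 to 0.10 with a replicate left out; Gzma (-4.70) was at 0.58 with Tn replicate 2 as the only naive library; and Prdm1 (0.56) was at -0.0087 with the replicate block. The causes were not tested. With 3 libraries a group and 14668884 to 19598158 counts each, differences under 0.204 CPM from 0 were not detectable.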

Other observations

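By annotated gene type, pseudogenes stood apart in Tex against Tn by few falls. Of 589 tested 138 rose (23.4%) and 29 fell (4.92%), with a median log2 fold change of 0.30, beside 27.3% and 25.6% over all genes. Pseudogenes can take reads of their parent genes, and the settings of the counting are not given in the sources used here. Long noncoding RNAs rose less often than all genes, with 45 of 405 higher (11.1%) and 124 lower (30.6%, median -0.64). Of 36 tested snoRNA genes none rose and 4 fell, and of 21 miRNA genes, whose short mature products such libraries do not hold, 2 rose and 6 fell. J segments of antigen receptors fell in 46 of 55 cases.

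Protein-coding genes that fell spanned more of the genome than those that rose. The median span was 30.6 kb for the 3121 that fell (quartiles 13.1 and 74.1 kb), 19.5 kb for the 3633 that rose (8.86 and 42 kb) and 21.6 kb for the 5348 not called. The median GC content of promoters was 60.3%, 60.7% and 60.4%, known for at least 80.6% of each class. Span, transcript length and gene function were not separated here.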
